A study of Mus musculus with 23 samples.

Results

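Fev and Cdk5r2 are neighbouring genes of mouse chromosome 1 that were followed through every table of a study of limb enhancers. They were taken by name, as 2 of the 79 genes in the authors' tables against wild type and 2 of the 34682 genes in their table of a CTCF site deletion. The pair was selected on the deposited means and log2 changes themselves, low in wild type limb and high in 1 inversion, so those values are given as a description, with no test. The RNA is of the distal forelimb at embryonic stage E11.5. There were 5 libraries from wild type (WT) embryos, 3 each from Inv1, Inv3 and Inv4, 4 from Inv2 and 2 from Inv1DelCTCF. The labels call all 5 mutants only mutant. The series' design says that they are CRISPR/Cas9 structural variants that bring an enhancer cluster of the Epha4 domain into a gene-dense region, and Inv1DelCTCF is by its name the Inv1 inversion with a CTCF site removed. G4 embryonic stem cells are named as the cell type of every library, wild type included. The deposited files give comparisons between groups, with no value per library, so the depth and the spread of single libraries are unknown, and the errors below are the authors' standard errors (SE). With whole tissue, a change in the share of expressing cells and a change in RNA per cell cannot be told apart.

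Fev, also known as Pet-1, is an ETS family transcription factor best known from serotonergic neurons, where it switches on genes of serotonin synthesis and uptake. Cdk5r2 encodes p39, an activator of the kinase Cdk5, and like its relative Cdk5r1 (p35) it is used mainly by neurons, where Cdk5 acts on the cytoskeleton and on migration. Enhancers act on promoters within the same topological domain, and CTCF sites mark many domain borders, so an inversion can place an enhancer beside genes it does not normally meet.

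In the GRCm38 annotation Cdk5r2 lies on the plus strand and Fev on the minus strand, so they are transcribed toward each other, with 0 annotated genes between them. Wnt10a is the next coding gene on the Cdk5r2 side, and Cryba2, Cfap65 and Ihh follow on the Fev side. Their RefSeq promoters (build GRCm38.p6) are shown because the pair is set side by side in every comparison below. Each is the 250 bases before the annotated start, 5′ to 3′ on the gene's own strand, at chr1:74885409-74885658 for Fev and chr1:74854779-74855028 for Cdk5r2. Capitals mark matches on either strand to 4 words, chosen with the sequences in view. The GC box core was searched as GGGCGG. The word of GATA factors was searched as GATAAG. The homeobox palindrome was searched as TTAATTAA. The last was the CCAAT box by its 5 letters.
Fev: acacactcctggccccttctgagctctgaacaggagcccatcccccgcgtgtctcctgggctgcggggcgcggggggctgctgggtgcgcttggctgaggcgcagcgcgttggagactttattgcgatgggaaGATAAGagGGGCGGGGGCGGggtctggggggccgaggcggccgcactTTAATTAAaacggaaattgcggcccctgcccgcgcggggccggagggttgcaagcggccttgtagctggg
Cdk5r2: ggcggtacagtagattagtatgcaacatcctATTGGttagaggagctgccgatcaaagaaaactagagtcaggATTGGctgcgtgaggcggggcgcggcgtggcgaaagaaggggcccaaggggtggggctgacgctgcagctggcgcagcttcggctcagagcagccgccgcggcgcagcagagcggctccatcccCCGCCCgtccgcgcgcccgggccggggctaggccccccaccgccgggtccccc
Both promoters are rich in G and C, at 68% for Fev and 68.8% for Cdk5r2, against a median of 52.4% over 32851 promoters of that length. The Fev promoter holds 2 matches to the GC box core, 1 to the GATA word and 1 to the homeobox palindrome. The GATA word occurs in 6.55% and the palindrome in 0.563% of all promoters. The Cdk5r2 promoter holds 2 CCAAT boxes and 1 GC box core, all on the opposite strand. The CCAAT box occurs in 33.8% and the GC box core in 32.7% of all promoters, so these words are common. A further word searched, TATAAA, is in neither window and is in 12.4% of all promoters. Apart from the GC box core, the windows share none of these words. No match overlaps another, and a match in letters is not evidence of binding.

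Fev was far higher in Inv3 than in any other group. Its group levels can be rebuilt from the mean normalised count over the 18 libraries, 113 by the authors' deposited table, and the 4 fold changes. That gives 5.92 normalised counts per library in wild type, 8.77 in Inv1, 8.65 in Inv2, 641 in Inv3 and 8.91 in Inv4. By the rebuilt levels Inv3 stood apart, and the other 3 inversions lay close together. Their closeness is that of the deposited fold changes, and the levels outside Inv3 depend on the fit used, as described below. The log2 change against wild type by the authors' deposited table was 6.76 (SE 0.237) in Inv3. It was 0.57 (SE 0.266) in Inv1, 0.55 (SE 0.266) in Inv2 and 0.59 (SE 0.267) in Inv4. By these levels 94.3% of all normalised Fev counts came from the 3 Inv3 libraries, which are 16.7% of the libraries.

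Cdk5r2 had the same highest group with a much smaller difference. Its rebuilt level was 16.7 normalised counts in wild type, 20.7 in Inv1, 20.9 in Inv2, 45.1 in Inv3 and 25.9 in Inv4. The log2 change by the authors' deposited table was 1.43 (SE 0.250) in Inv3, a fold of 2.70 with a 95% interval of 1.92 to 3.79. That interval rests on the deposited SE alone, and the rescaling described below gives a fold of 6.33, outside it. In Inv4 the log2 change was 0.63 (SE 0.256) by the authors' deposited table, the next highest, and in Inv1 and Inv2 it was 0.31 (SE 0.254) and 0.32 (SE 0.250). By these rebuilt levels Inv3 libraries gave 30.6% of all normalised Cdk5r2 counts, a share that came to 50.8% under the rescaling described below. For both genes all 4 log2 changes were positive, and all 4 share the wild type libraries.

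**Figure D1:**
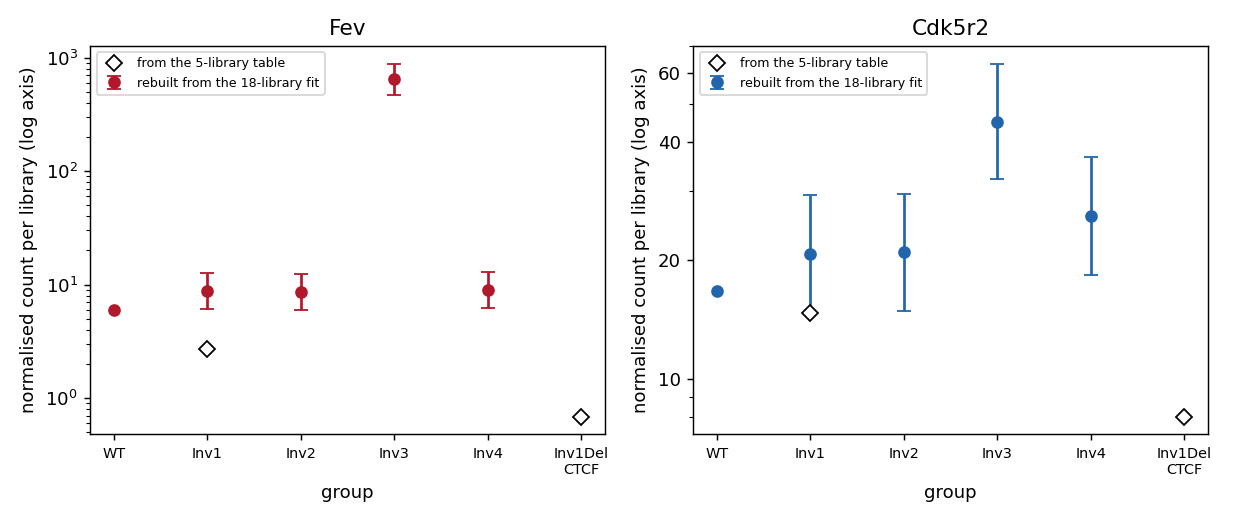
Levels of Fev (left) and Cdk5r2 (right) in each group, in normalised counts per library on log axes of different range. Filled circles are rebuilt from the fit of 18 libraries, with bars for the 95% interval of the fold against wild type (wild type itself has none), and open diamonds come from the table of 5 libraries, rescaled. Fev stands at 641 in Inv3 and under 10 in every other group, while Cdk5r2 runs from 16.7 to 45.1 among the circles.

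The order of the levels was wild type, Inv2, Inv1, Inv4 and Inv3 for Fev, and wild type, Inv1, Inv2, Inv4 and Inv3 for Cdk5r2. The intervals do not separate the neighbours in this order among Inv1, Inv2 and Inv4. For Fev, Inv4 minus Inv2 was 0.04 on the log2 scale, with a 95% interval of -0.70 to 0.78, and for Cdk5r2 it was 0.31 (-0.39 to 1.01). The step from Inv4 to Inv3 was different in size for the 2 genes. Inv4 minus Inv3 was -6.17 (-6.87 to -5.47) for Fev and -0.80 (-1.50 to -0.10) for Cdk5r2. These intervals sum the SE of both comparisons as if they were independent, although the wild type libraries are shared. They do not cover the difference between the fits described below.

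The authors' deposited adjusted p was under 0.05, here termed called, for both genes in Inv3, where 32.9% of the listed genes were called. It was called for neither in Inv1 (8.97% of listed genes called), Inv2 (4.05%) or Inv4 (20.8%). In Inv4 the adjusted p by the authors' deposited table (Wald test of DESeq2) was 0.0564 for Cdk5r2 and 0.0935 for Fev. The unadjusted p of Fev by the authors' deposited table was 0.0332 in Inv1, 0.0392 in Inv2 and 0.0272 in Inv4, and that of Cdk5r2 was 0.225, 0.194 and 0.0132 in the same order. Nothing is read from these calls, because the pair was chosen for this pattern.

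Set per kilobase of annotated exon, the pair's rank among the 72 genes found in all 4 tables changed mostly for Fev. With 1.62 kb of exon, Fev had 3.66 normalised counts per kb in wild type, rank 66, and 397 in Inv3, rank 25. Cdk5r2, with 2.80 kb, had 5.97 per kb in wild type, rank 63, and 16.1 in Inv3, rank 59. The level of Fev per kb in Inv3 was thus above that of Ihh, the Indian hedgehog ligand gene of the same neighbourhood, at 30.8 per kb. It remained below that of Epha4, the ephrin receptor gene from whose domain the enhancers come, at 1168 per kb in Inv3.

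How low the genes are outside Inv3 depends on the table. Inv1 libraries were also fitted in the separate table of 5 libraries, and these 2 sources can be set side by side after removing the median offset of 0.14 on the log2 scale between the fits, which were normalised separately. For Fev the Inv1 level was 8.77 when rebuilt from the 18 libraries and 2.73 from the table of 5. For Cdk5r2 it was 20.7 and 14.7. The rebuilt level was therefore higher by 1.68 on the log2 scale for Fev and by 0.50 for Cdk5r2. Of the 72 genes, 56 differed by at most 0.1 and the median absolute difference was 0.022, with Fev the largest positive difference. Ihh (1.40), Prkag3 (1.04), Wnt6 (0.69) and Kcne4 (0.68) were the other genes above 0.5. The SE in the tables against wild type did not exceed 0.269 for any gene, and in the table of 5 libraries it reached 4.56.

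If wild type, Inv2 and Inv4 are scaled down with that lower Inv1 level, Fev comes to 1.84 normalised counts in wild type and 668 in Inv3, and Cdk5r2 to 11.8 and 75.0. Counts of 0 in every other group would allow at most 681 for Fev in Inv3. The pooled mean thus limits the Inv3 level of Fev only from above. The deposited folds and this rescaling put that level at 641 and 668, not far below the limit. The wild type level of Fev, and with it the fold of 108 by the authors' deposited table, is not held in this way. The ratio of Inv3 to wild type would be 363 for Fev and 6.33 for Cdk5r2 after this rescaling. For Cdk5r2 the upper limit set in the same way is 148, so neither its Inv3 level nor the fold of 2.70 by the authors' deposited table is held closely. The cause of the difference between the fits was not tested.

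**Figure D2:**
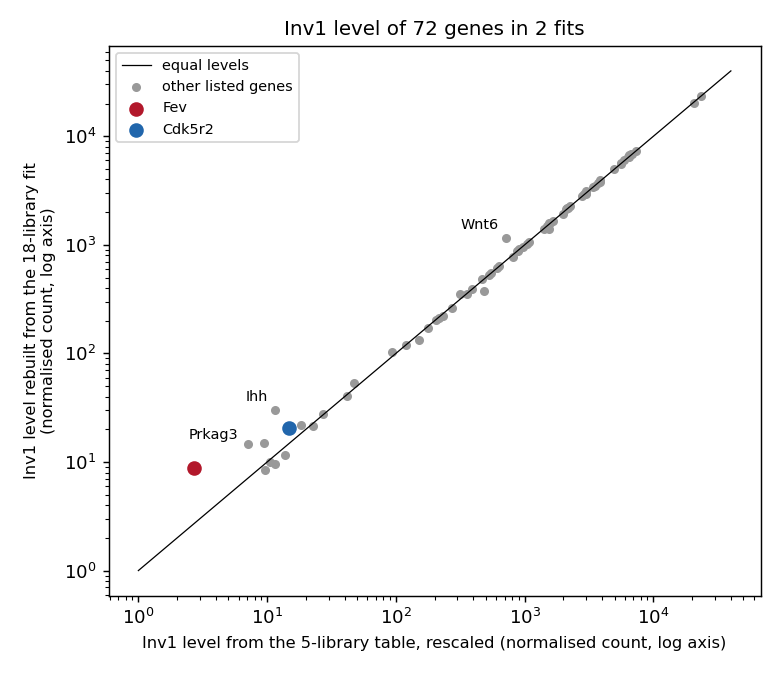
Inv1 level of each of the 72 genes listed in all 4 tables against wild type, from the table of 5 libraries (x axis, rescaled by the median offset) and rebuilt from the fit of 18 libraries (y axis), in normalised counts on log axes. Most genes lie on the line of equal levels, and Fev, at 2.73 and 8.77, lies farthest above it.

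Inv1DelCTCF asks whether removing the CTCF site alters genes around the Inv1 inversion, and for this pair the table holds little signal. The mean of Fev over the 5 libraries was 1.74 normalised counts by the authors' deposited table, 8.69 in sum, so that 17.6% of the 21941 detected genes were lower. The split by group, on that table's own scale, was 2.48 per library in Inv1 and 0.624 in Inv1DelCTCF. The log2 change of Fev by the authors' deposited table was -1.99 (SE 2.06), with a 95% interval of -6.03 to 2.05, negative meaning less RNA after the deletion. Cdk5r2 had a mean of 10.9 by the authors' deposited table, 13.3 per library in Inv1 and 7.28 in Inv1DelCTCF. Its log2 change by the authors' deposited table was -0.87 (SE 0.842, interval -2.52 to 0.78). Neither gene had an adjusted p, and the unadjusted p by the authors' deposited table (Wald test of DESeq2) was 0.334 for Fev and 0.300 for Cdk5r2. The intervals span folds from 0.0153 to 4.13 for Fev and from 0.174 to 1.71 for Cdk5r2, so they include both losses and gains, but no gain above these upper limits.

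The neighbours of the pair were taken as the 10 listed genes on each side in chromosome order. In Inv3, 3 of the 20 rose and 3 fell by the authors' deposited table, where 16.5% of all listed genes rose and 16.5% fell. Their median log2 change was 0.01, as over all listed genes (0.01). Ihh, Prkag3, a muscle subunit gene of AMP-activated kinase, and Glb1l rose. Ihh had a log2 change of 1.77 (SE 0.267), Prkag3 one of 1.28 (SE 0.257) and Glb1l one of 0.32 (SE 0.094) by the authors' deposited table. Rqcd1, Ttll4 and Abcb6 fell, with log2 changes of -0.25, -0.29 and -0.24 by the authors' deposited table.

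None of the 2 nearest listed genes on the Cdk5r2 side was called in Inv3, and on the Fev side Ihh was, but not the next ones. Wnt10a, a Wnt ligand gene next to Cdk5r2, had a log2 difference of 0.39 (SE 0.189, adjusted p = 0.116, Wald test of DESeq2) and Wnt6 one of -0.01 (SE 0.141) by the authors' deposited table. On the other side Nhej1, a DNA repair gene, had one of -0.07 (SE 0.127) and Slc23a3 one of 0.51 (SE 0.267, adjusted p = 0.143, Wald test of DESeq2) by the authors' deposited table. Cryba2, the gene next to Fev, is in no table against wild type, and by the authors' deposited table of Inv1DelCTCF it was listed at 0. That comparison covers only Inv1 and Inv1DelCTCF, so the level of Cryba2 in Inv3 is unknown.

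The neighbours called in the other inversions were in part other genes. In Inv4, Prkag3 (3.01, SE 0.253), Ihh (1.74, SE 0.267) and Cyp27a1, a sterol hydroxylase gene (1.55, SE 0.119), rose on the log2 scale and Abcb6 fell (-0.30, SE 0.083) by the authors' deposited table, where 13.9% of listed genes rose and 6.94% fell. In Inv2, Ihh (1.37, SE 0.266) and Slc23a3 (1.18, SE 0.269) rose, and in Inv1 Fam134a was the 1 neighbour called, with 0.31 (SE 0.075), by the authors' deposited table. In Inv1, 19 of the 20 neighbours had a positive log2 change and 7 an unadjusted p under 0.05, among them Slc23a3 (0.70), Atg9a (0.35) and Glb1l (0.34), by the authors' deposited table. The median of the 20 was 0.13, against 0.09 over all listed genes. A positive change was thus common over the whole list in Inv1. How many of all listed genes had one, or an unadjusted p under 0.05, was not counted, so nothing is read from either count. The share of listed genes that rose was 2.70% in Inv2 and 7.69% in Inv1, and the share that fell was 1.35% and 1.28%. In Inv1DelCTCF, 1 of 16 neighbours with an adjusted p was called, Ttll4 with a log2 change of -0.28 (SE 0.090), where 11.7% of all tested genes were called by the authors' deposited table. Wnt6 had a log2 difference of -0.43 (SE 0.155, adjusted p = 0.0509, Wald test of DESeq2) there by the authors' deposited table.

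**Figure D3:**
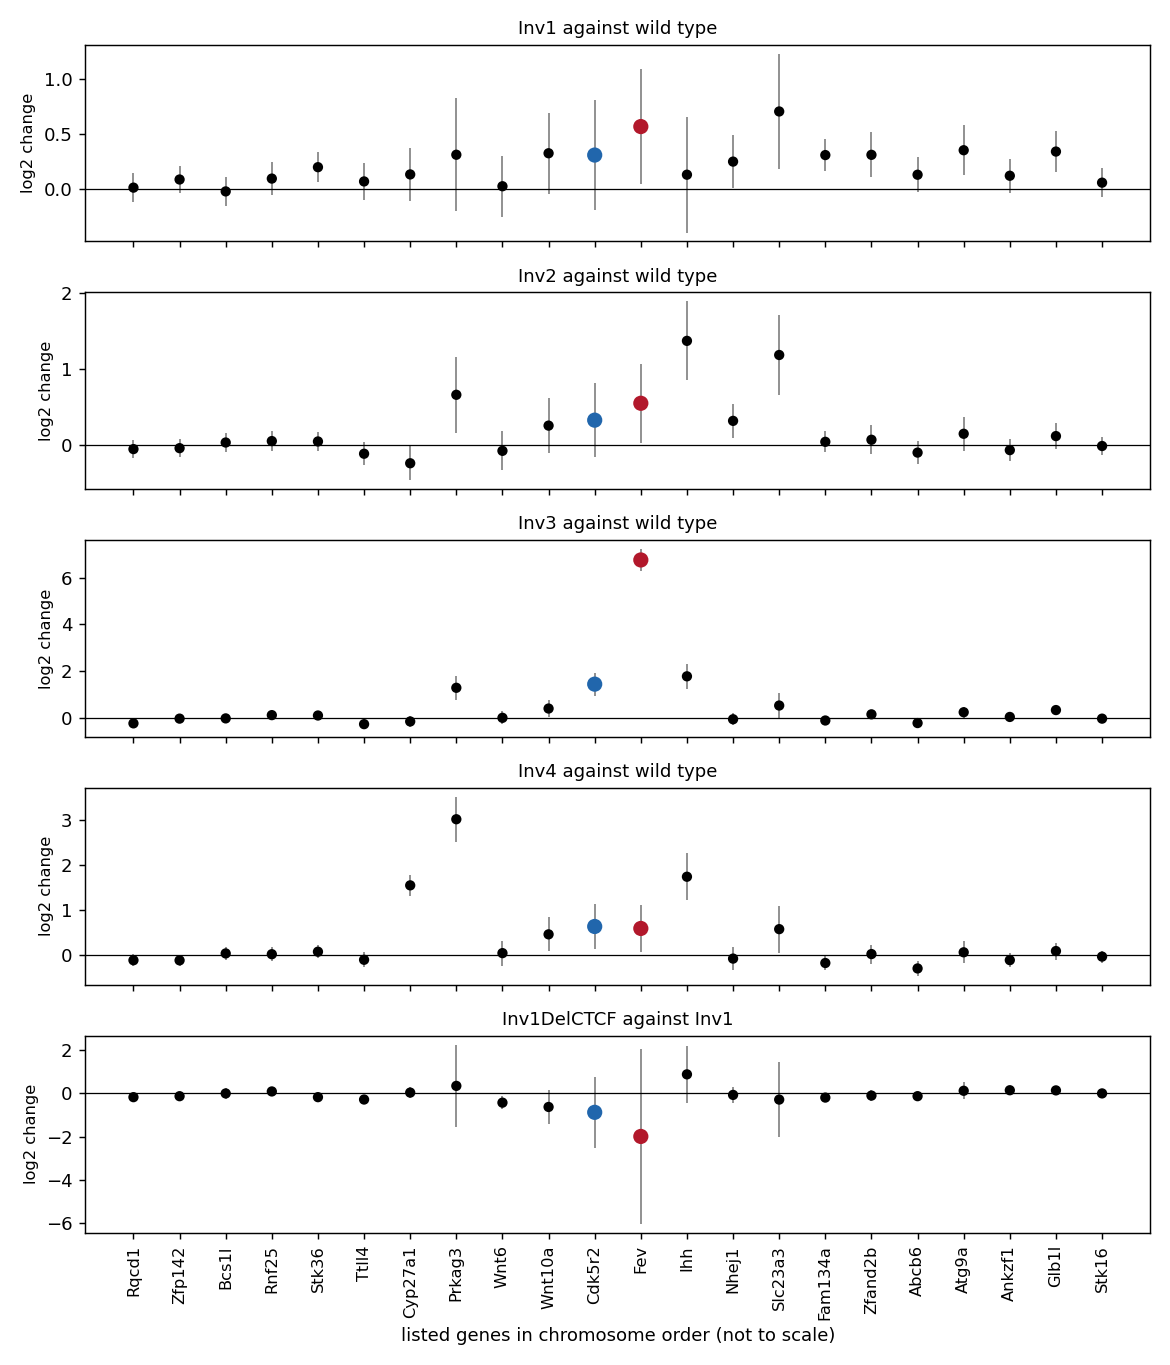
Log2 change of Cdk5r2 (blue), Fev (red) and the 10 listed genes on each side (black), in chromosome order but not to scale, in each of the 5 deposited comparisons. Bars are 95% intervals from the authors' SE, and the y axes differ between panels. Fev reaches 6.76 in Inv3, where Ihh and Prkag3 stand at 1.77 and 1.28.

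The differences between inversions were tested for the 20 neighbours, with adjustment over all genes of each pair. Between Inv3 and Inv4, 2 of 20 neighbours differed, against 4.17% of all listed genes. Prkag3 was higher in Inv4 by 1.74 (SE 0.361, adjusted p = 3.47e-05 by the Wald test of the difference between the DESeq2 changes) and Cyp27a1 by 1.72 (SE 0.171). For Ihh the changes of Inv3 and Inv4 by the authors' deposited table, 1.77 and 1.74, were nearly equal, whereas those of Fev, 6.76 and 0.59, were far apart. Between Inv3 and Inv2 none of the 20 passed the same Wald test (2 had an unadjusted p under 0.05), where 4.05% of all listed genes did. Against Inv1, 6 neighbours differed in Inv3 (23.1% of all listed genes), 5 in Inv4 (13.9%) and 1 in Inv2 (8.11%), and Ihh was among them each time.

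Among the 68 other genes with a mean of at least 10, those whose 4 log2 changes ran most like Fev were Cdk5r2 (Pearson r = 0.96), Serpine2 (0.95), Slc4a3 (0.93), Fn1 (0.92) and Inha (0.85). Those most like Cdk5r2 were Fn1 (0.99), Fev (0.96), Inha (0.94), Igfbp2 (0.90) and Tns1 (0.89). These are descriptions over only 4 comparisons that share the wild type libraries, and they ignore size. Serpine2 had a log2 change of 0.10 and Slc4a3 one of 0.39 in Inv3 by the authors' deposited table, against 6.76 for Fev. Fev and Cdk5r2 were selected for being high in Inv3, so the r of 0.96 between them was largely set by that choice. Nothing is read from that r.

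Of 5 other genes from the list of neural and neuroendocrine genes found for Inv3, 1 was called there, where 32.9% of listed genes were. It was Inha, which encodes the inhibin alpha subunit, a hormone gene rather than a neural one. Inha rose in Inv3 by 0.48 (SE 0.156, adjusted p = 0.0109, Wald test of DESeq2) by the authors' deposited table. Ptprn, a gene of dense-core vesicles, had a log2 change of -0.48 (SE 0.256) in Inv3 and rose by 3.82 (SE 0.243) in Inv1 by the authors' deposited table. Asic4, an ion channel gene, had one of 0.53 (SE 0.268), Scg2, a granin gene, one of -0.05 (SE 0.230), and Resp18, with a mean of only 4.81, a log2 change of 0.00 in Inv3 by the authors' deposited table. In Inv1 Resp18 rose by 1.66 (SE 0.212) by the authors' deposited table.

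Only the Inv1DelCTCF table covers the whole genome, so cell type markers can be read in Inv1 and Inv1DelCTCF alone. The limb mesenchyme genes Prrx1 and Hoxd13 had means of 25893 and 19242 normalised counts by the authors' deposited table. Among neuronal genes, Dcx had a mean of 1599, Gap43 one of 573 and Tubb3 one of 409 by the authors' deposited table. All 16 neuronal markers were detected, and their summed level was 3767 in Inv1 and 3589 in Inv1DelCTCF.

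Levels differed widely among the markers of serotonergic neurons. Tph2, the serotonin synthesis enzyme of neurons, had a mean of 4.12, Slc6a4, the serotonin transporter, one of 32.3, and Htr1a, a serotonin receptor, one of 0.213 by the authors' deposited table. The transcription factor genes Lmx1b, Gata2 and Gata3 had means of 1220, 113 and 77.3 by the authors' deposited table. Ddc and Maob, enzyme genes of monoamine synthesis and breakdown that are also used outside neurons, had means of 118 and 119 by the authors' deposited table. Lmx1b also patterns the dorsal limb. The summed level of the 15 genes of this list other than Fev was 1860 in Inv1 and 1521 in Inv1DelCTCF, and 1 of them, Nkx2-2, was listed at 0. Most of that sum is Lmx1b, with a log2 change of -0.44 in Inv1DelCTCF by the authors' deposited table. The sum therefore mainly follows this 1 limb gene. Whether neuronal or serotonergic markers differ in Inv3 was not tested, because the table of Inv3 lists genes of chromosome 1 alone.

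After the CTCF site deletion some relatives of the 2 genes were called. Among 26 ETS transcription factor genes 18 had an adjusted p, 5 fell and none rose by the authors' deposited table, where 7.89% of all tested genes fell and 3.81% rose. At an unadjusted p under 0.05 there were 8, but the share of all genes at that unadjusted p was not counted. Etv4 and Etv5, known as readouts of FGF signalling in the limb bud, had log2 changes of -0.61 (SE 0.112) and -0.48 (SE 0.097) by the authors' deposited table. Elk4 stood at -0.46 (SE 0.114), Erf at -0.38 (SE 0.117) and Ets2 at -0.22 (SE 0.069) by the authors' deposited table. The list's median was -0.20, against 0.00 over all genes, and those of the lists for limb mesenchyme, ridge and ectoderm, and endothelium were -0.25, -0.21 and -0.13. Erg and Fli1, the closest relatives of Fev, stood at 0.27 (SE 0.150) and -0.20 (SE 0.074) without being called by the authors' deposited table.

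Of 13 genes for Cdk5, its activators and partners, 10 had an adjusted p, 2 fell and 1 rose by the authors' deposited table, with 3 at an unadjusted p under 0.05, where 7.89% of all tested genes fell and 3.81% rose. The median log2 change was 0.08. Dpysl2 and Dpysl3, whose products are collapsin response mediators bound to the cytoskeleton, had log2 changes of -0.69 (SE 0.067) and -0.21 (SE 0.073), and Dab1, of the reelin pathway, had one of 0.40 (SE 0.123) by the authors' deposited table. Cdk5 itself was measured at a mean of 1296 and Cdk5r1 at 512 by the authors' deposited table, so the kinase and its other activator were detected in this tissue. Their log2 changes by the authors' deposited table were 0.09 (SE 0.080) and -0.00 (SE 0.126), neither called.

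Of the remaining lists, none of 6 neuronal genes with an adjusted p was called by the authors' deposited table (3 of the 16 had an unadjusted p under 0.05), and none of 3 Schwann and glial precursor genes was (1 of 9). Lmx1b, at -0.44 (SE 0.119), was the 1 gene called of 3 tested in the serotonergic list by the authors' deposited table. In the limb mesenchyme list 3 of 13 fell (Lhx2, Hoxd12 and Hoxa13), in the ridge and ectoderm list 3 of 10 (Krt5, Sp8 and Cdh1) and in the endothelial list 1 of 9 (Cdh5) by the authors' deposited table, and in these 3 lists none rose, where 7.89% of all tested genes fell and 3.81% rose. Larger falls with larger SE were not called. They were -1.99 (SE 0.738) for Shh, which had no adjusted p, and -1.20 (SE 0.609) for Fgf8 by the authors' deposited table. Msx1 stood at -0.99 (SE 0.421) and Grem1 at -0.90 (SE 0.400) by the same table. At an unadjusted p under 0.05, 8 of 15, 4 of 12 and 3 of 9 genes of the limb mesenchyme, ridge and ectoderm, and endothelial lists were lower and none higher. As the share of all genes at that unadjusted p was not counted, nothing is read from the unadjusted counts of any list. Dner rose and Ptprn fell among the 3 tested genes of the neural and neuroendocrine list of chromosome 1, which include Inha, by the authors' deposited table. Neither Fev nor Cdk5r2 enters the counts of tested or called genes, as both lack an adjusted p there. Fev does belong to the ETS list and Cdk5r2 to the Cdk5 list, so the sizes and medians of those lists include them.

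**Figure D4:**
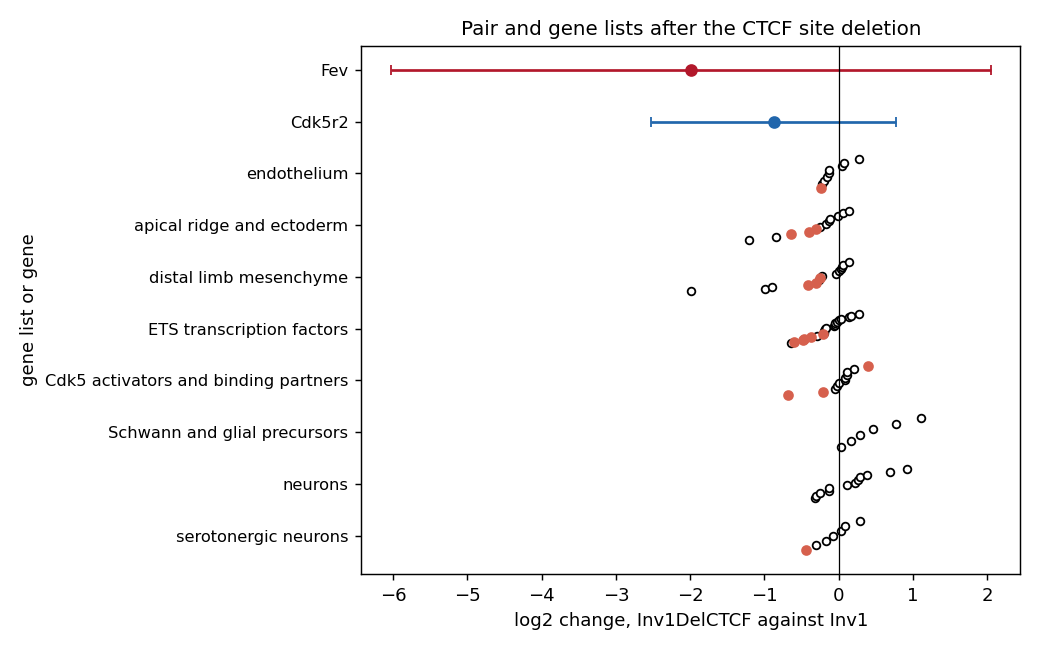
Log2 change in Inv1DelCTCF against Inv1 (x axis) for Fev and Cdk5r2, with 95% intervals, and for the genes of 8 lists with a mean of at least 10 (points, called genes filled). The intervals of Fev, -6.03 to 2.05, and Cdk5r2, -2.52 to 0.78, both include 0, and the points run from -1.99 (Shh) to 1.11 (Cdh19).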

How the data were processed

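RNA from distal forelimbs was sequenced, and the files are 5 tables of the authors' comparisons. Per the submitters' processing notes, STAR and DESeq2 were used with build mm9, and no version is given. Per the file headers, each table gives a mean of normalised counts (a signal pooled over libraries), a log2 fold change and its SE on the log2 scale, a Wald score, a p-value and an adjusted p-value, all deposited by the authors. The 4 tables against wild type hold the same mean for each gene, so they come from 1 fit of 18 libraries, and the other table from 5. The 3 embryonic stem cell libraries were not analysed here.

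The members and lists were chosen with earlier results of these data known. Named genes are the pair, the 10 listed genes on each side, the 5 genes most like each by Pearson r, and of each list the called genes or the 3 most abundant, besides genes of the marker lists and relatives. Erg, Fli1, Cdk5, Cdk5r1, Epha4, Asic4, Scg2, Resp18, Kcne4, Ddc, Maob and Cdh19 were named outside that rule, after their values were seen.

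Group levels were rebuilt as the pooled mean times 18 over the sum of libraries weighted by fold. The sign was fixed on 49 genes with a mean of at least 300, without the pair. The median absolute residual between the tables was 0.0124 (log2) when positive means higher in the mutant and, in the other table, higher in Inv1, and 0.107 to 0.132 under the other conventions. That sign was turned for Inv1DelCTCF. Differences between inversions were tested against the SE of both comparisons added in quadrature, using normal p-values adjusted by Benjamini-Hochberg. In 100 simulated tables of Inv4 minus Inv3 over 72 genes, the test found 87.3% of genes differing by 1 (log2), with 5.55% of calls false. The simulated noise was independent and drawn from the same SE that the test uses. It therefore checks the calculation only, and cannot give the error rate in these data, where wild type libraries are shared. Nothing in the labels says that replicates came from separate litters, so a p-value covers only the spread among these libraries, which may be technical. All 79 listed genes matched GENCODE M21 (GRCm38), used for order, strand and exon length. Promoters came from RefSeq, and both genes matched. Alternatives are in the closing section. The software was Python 3.11.15 with SciPy 1.17.1, numpy 2.4.6, matplotlib 3.10.9 and pandas 2.3.3.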

Additional observations from a re-analysis of the deposited data

How the results depend on the processing

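No paired analysis was possible because the deposited tables hold no value per library, and for the same reason no replicate could be left out. At an adjusted p under 0.1 both genes, 2 of 2, would be called in Inv4 too, and at 0.01 or with adjustment over each table's rows the calls of the pair did not change. Nothing is read from this, because the pair was chosen for this pattern. The share of all listed genes called at 0.1 was not counted. In a rescaling chosen after seeing the data, with all groups but Inv3 set by the Inv1 level of the table of 5 libraries, the wild type level was 1.84 for Fev and 11.8 for Cdk5r2, and the Inv3 level of Cdk5r2 was 75.0. The Inv3 level of Fev lay between 628 and 681 under every alternative tried for it. The sign convention was the same with a mean of at least 100 or 20. The fixed alternative of 5 neighbours on each side left 3 called in Inv3. At 0.01 the called neighbours were 0 in Inv1 and 0 in Inv1DelCTCF, and at 0.1 they were 2 and 2. With the larger SE alone, 4 neighbours differed between Inv2 and Inv1, 10 between Inv4 and Inv1 and 2 between Inv3 and Inv2. After the CTCF site deletion, at 0.01 the lists held 1 called Cdk5 gene, 3 ETS genes, 1 limb mesenchyme gene, 0 endothelial genes and 1 neural gene of chromosome 1. At 0.1 they held 1 Schwann and glial gene, 8 ETS genes, 5 limb mesenchyme genes and 2 endothelial genes. The genes with an adjusted p numbered 3, 18, 13 and 9 in these lists, in that order. No share over all genes was counted at these other settings, for lists or neighbours. The counts therefore show only how far the calls move. By Euclidean distance only 1 of the 5 genes most like Fev, and 0 of those most like Cdk5r2, were the same. Low counts limit every statement on the pair outside Inv3.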
